A study of Xenopus tropicalis with 12 samples.

Results

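Of the 19921 genes counted in the intestine of Xenopus tropicalis tadpoles, 27 were silent in the wild type before metamorphosis, were switched on at its climax and stayed low when both thyroid hormone receptor (TR) genes were absent. They were chosen by their counts. A member had at most 3 reads in each wild-type library at stage 54, a mean normalised count of at least 100 in wild type at stage 61, and a mean at least 8-fold below that level in TR double knockout tadpoles (TRDKO) at stage 54 and again at stage 61. Normalised counts are read counts divided by a size factor for each library, the median ratio of its counts to the mean library. They are not divided by gene length, so the order of the members below is an order of reads and not of molecules.

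The libraries came from poly-A-selected RNA of whole intestine, with 3 libraries in each of 4 groups. The groups were wild-type tadpoles, TRα+/+ TRβ+/+, at stage 54 and at stage 61, and TRDKO tadpoles, TRα-/- TRβ-/-, at the same stages. The study counts stage 54 as premetamorphic, and it also states that loss of both receptors starts metamorphosis early. Tadpoles at stage 61 are at its climax, the point where TRDKO animals stall. TRDKO tadpoles were bred from parents that lacked TRα and carried 1 working copy of TRβ, and the sources used here do not say which of the study's TRβ deletion lines gave the sequenced tissue. The study pooled tissue from several animals of a genotype for the RNA it used in PCR, and for the sequenced RNA its methods name no pool size.

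Thyroid hormone (T3) acts through TRs, nuclear receptors that sit on their target genes as heterodimers with retinoid X receptors. Without hormone the receptors recruit corepressors and hold target genes down, and with hormone they recruit coactivators and turn the same genes on. In the frog intestine the rise of T3 at climax is known for driving the death of the larval epithelium and the formation of adult epithelial stem cells. Loss of both receptors therefore removes repression as well as activation, which is why the levels in TRDKO tadpoles are given here at both stages.

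The counts list genes by Ensembl ID without names, and the gene table at hand held no Ensembl IDs, so that 0 of them matched. The TR genes, markers of intestinal and other cell types and the functions of the 27 genes were therefore not examined here. The members are numbered 1 to 27 by their mean level in wild type at stage 61, and the IDs of the highest 2 are given. Library totals ranged from 20112705 to 37936503 counts. TRDKO stage 54 replicate 3 stood apart from its group. The median squared difference of its counts from those of replicates 1 and 2 was 27.4 and 23.5 times that expected from sampling noise. In the remaining 10 within-group pairs this ratio was 1.19 to 1.91. Several values below are given with and without TRDKO stage 54 replicate 3. The study's methods call the RNA samples of a group biological replicates. The tests below set a difference against the spread between such replicates, estimated from all 12 libraries together. That spread includes TRDKO stage 54 replicate 3, so standard errors and adjusted p-values depend on this library. Without it the adjusted p of member 9 between the stages in TRDKO went from 3.58e-06 to 7.71e-11 (edgeR). That of member 16 went the other way, from 0.00709 to 0.0293 (edgeR).

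**Figure D1:**
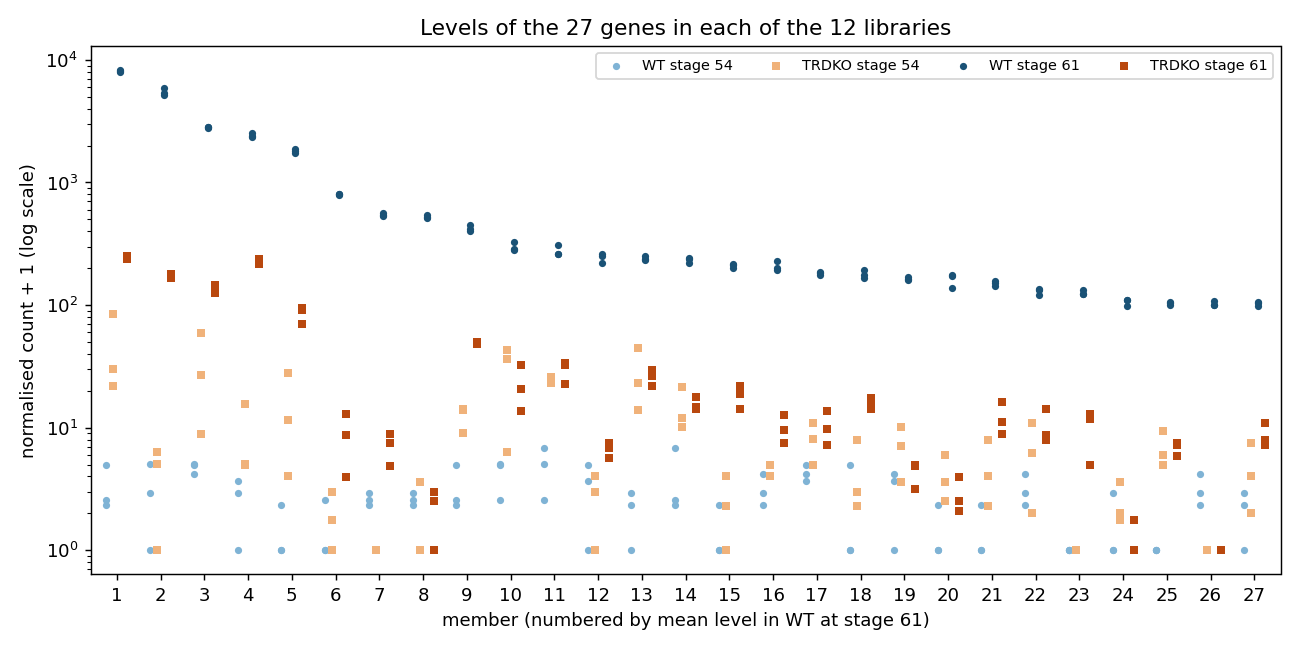
Normalised count plus 1 (log scale) of each of the 27 members, numbered by level, in each of the 12 libraries, 3 points per group. The wild-type stage 61 points lie above every other point of the same member, and the TRDKO stage 61 points lie at 11.3% of them or less by group mean.

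The members differed widely in how strongly they were switched on in wild type. Member 1, ENSXETG00000022372, had normalised counts of 8280, 8000 and 8113 in the 3 wild-type libraries at stage 61. At stage 54 the wild type had 2, 1 and 1 reads of it. Member 2, ENSXETG00000025478, had normalised counts of 5161, 5903 and 5368 at stage 61, against 1, 3 and 0 reads at stage 54. These are the tallest columns of points in the plot of levels, and none of their stage 61 libraries came near a library of another group.

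Below them the levels dropped quickly. Members 3, 4 and 5 had means of 2823 ± 25.9, 2427 ± 96.1 and 1804 ± 67.2 (SD, n = 3). Another 4 members lay between 300 and 1000, and the remaining 18 lay under 300, down to 101.7 ± 4.78 (SD, n = 3) in member 27. The median over the 27 was 232. Replicates agreed closely at all of these levels, with a coefficient of variation between 0.918% and 13.2% and a median of 4.62%, against a median of 3.85% over the 10471 genes with a mean of at least 100 in wild type at stage 61.

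Together the 27 genes took 0.147%, 0.151% and 0.146% of all reads in wild type at stage 61. Members 1 to 5 alone gave 78.7% to 79.1% of these reads. A sum over the members is thus mainly a statement about 5 genes, and sums are given for these and for the other 22 apart.

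At stage 54 the wild-type intestine held almost no reads from any of them. Of the 81 values that the 27 genes have in these 3 libraries, 26 were counts of 0, and no gene had more than 7 reads over the 3 libraries. Members 23 and 25 had no read at all. Their levels at stage 61 were at least 78.5-fold and 64.2-fold higher than the level of 3 reads over the group, the limit that a count of 0 allows. For the 25 members with a read, the ratio of stage 61 to stage 54 ran from 47.7 (95% counting interval 18.5 to 176) in member 26 to 3831 (1496 to 14062) in member 1. These intervals are exact and cover counting error only. In the test described below all 27 were higher at stage 61, as were 30.4% of all genes tested, but the rule used this contrast and the count says nothing more about them.

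In TRDKO tadpoles at stage 61 the same genes were detected at a small share of the wild-type level. Whole intestine was sequenced, so fewer cells of a type and less RNA per cell cannot be told apart. The median share was 5.09%, the lowest 0% and the highest 11.3%, close to the most that the 8-fold limit of the rule allows. In 14 members it was 5% or more, in 9 it lay between 1% and 5%, and in 4 it was under 1%. Every wild-type stage 61 library lay above every TRDKO library of both stages in all 27 members, as in 29.5% of all genes tested, and all 27 were called lower in TRDKO at stage 61, as were 20.1% of all genes tested. The rule fixes both counts.

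Low did not mean absent. In 21 members each of the 3 TRDKO stage 61 libraries had more than 3 reads, 2 members had more than 3 reads in 1 or 2 of these libraries, and 4 members did not pass 3 reads in any. Member 1 had normalised counts of 250, 249 and 235 in these libraries, a mean of 245 ± 8.05 (SD, n = 3). This was 3.01% of its wild-type level. Member 4 had the highest mean after member 1, with 215, 235 and 233, or 9.37% of wild type.

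The 4 members with a share under 1% were members 6, 8, 24 and 26. Member 6 had a mean of 797 ± 9.78 in wild type at stage 61 and of 7.56 ± 4.54 (SD, n = 3) in TRDKO, a share of 0.948%. Member 8 had 898, 983 and 589 reads in wild type at stage 61 and 2, 0 and 2 reads in TRDKO. Member 26 had 163, 189 and 122 reads in wild type and none in any of the 6 TRDKO libraries, so that its wild-type level was at least 110-fold the limit of 3 reads over the 3 TRDKO libraries of stage 61. Members 8, 24 and 26 did not pass 3 reads in any TRDKO library of either stage. At this depth their expression in TRDKO was at the limit of detection.

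**Figure D2:**
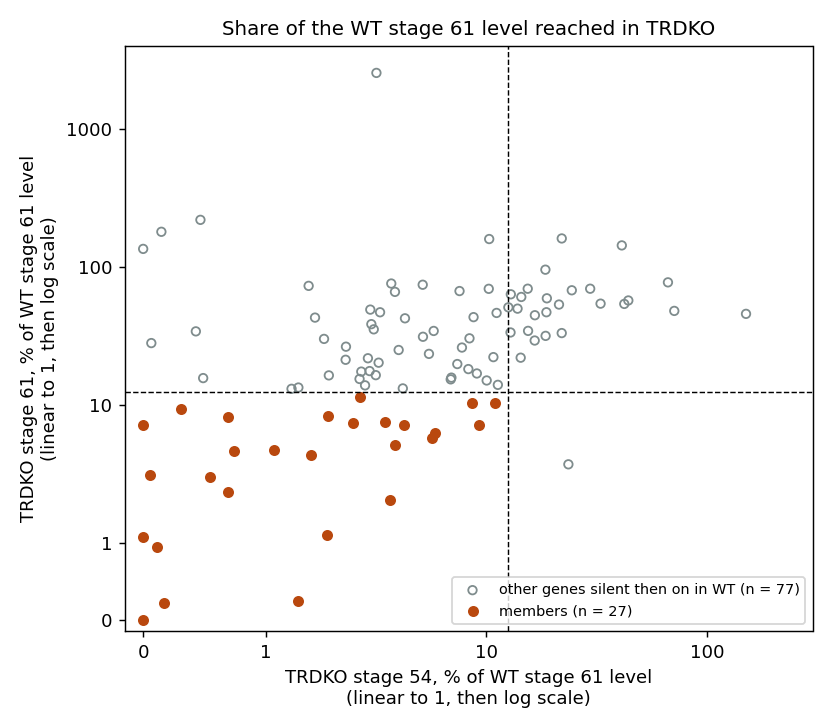
Level in TRDKO as a percentage of the wild-type stage 61 level, at stage 54 (horizontal axis) and stage 61 (vertical axis), for the 27 members and the 77 other genes silent in wild type at stage 54 and on at stage 61. Dashed lines mark the 8-fold limit of the rule. Both axes are linear to 1 and logarithmic above, and most other genes lie above the horizontal line but left of the vertical one.

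Most genes that wild type switched on from silence did not meet the condition on the knockout. Without it, 104 genes were at 3 reads or fewer in each wild-type stage 54 library and reached 100 at stage 61, and the 27 are 25.96% of them. Of the other 77, 50 went over the limit in TRDKO at stage 61 only, 26 at both stages and 1 at stage 54 only. The plot of shares shows this as a cloud above the horizontal line. In these 77 genes the median share of the wild-type level was 7.55% in TRDKO at stage 54 and 35.3% at stage 61, and in 7 of them TRDKO exceeded wild type at stage 61. Their median level in wild type at stage 61 was 157, and 1657 in the highest.

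The limits of the rule cut through a range of values. The member with the highest share at stage 61 had 11.3% and the nearest gene outside had 13.1%. At stage 54 the highest member had 10.96%, and the 1 gene that met all other conditions had 23.5%. Among the 77 other genes, whatever their level in TRDKO at stage 61, the shares at stage 54 ran on either side of the limit, with 11.3% and 12.6% nearest to it. The lowest level of a member in wild type at stage 61 was 101.7, and the nearest gene below had 92.1. For the silence in wild type at stage 54, the nearest counts inside and outside were 3 and 4.

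The rule was also applied to 2 libraries of each group and its genes were read in the third library, which it had not used. It chose 29, 34 and 30 genes, of which 23, 23 and 25 met every condition in the library left out. The share at stage 61 was within the limit in 28, 31 and 29 of them, and its highest value was 18.8%. At stage 54 it was within the limit in 29, 33 and 29, with a highest value of 18.9%. The choice of libraries thus changed which genes were members. Nearly all of those chosen were low in TRDKO in the library left out as well. That library is a replicate of the same groups, so this shows agreement between replicates and is not independent support. These readings were chosen after seeing the data.

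The rule caps the TRDKO level at both stages but does not use the order of the stages. The difference between the stages within TRDKO was tested with edgeR's quasi-likelihood test on all 13954 genes that passed a filter on low counts, and calls required an adjusted p (Benjamini-Hochberg) under 0.05 together with a more than 2-fold change. All 27 members passed the filter, for which the wild-type stage 61 libraries were enough. In TRDKO, 13 members rose from stage 54 to stage 61 and 0 fell, where 12.46% of all genes tested rose and 12% fell. Only 7 members had more than 3 reads in every TRDKO library at stage 54. Most members thus had little room for a called fall, and the 0 is not a result about them. At an unadjusted p under 0.05, 15 members differed. DESeq2 called 13 risen and 0 fallen. The share of all genes is not given for either setting, so neither count adds support. Since wild type at stage 61 both chose the members and let them through the filter, these counts are a description of the members. The whole procedure, with its filter, scaling, fit and adjustment, was also run on the 6 TRDKO libraries alone. There 12 members passed the filter and 8 were called risen, namely members 1 to 5, 9, 15 and 18. Members with few reads at stage 54, such as 15 and 18, passed that filter through stage 61, where they were higher. These counts are therefore a description too, and the share of all genes called in that fit is not given.

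All of members 1 to 5 rose. The other risers were members 6, 7, 9, 15, 16, 18, 21 and 23, which are 8 of the remaining 22. Only 12 of the 27 members passed the filter on the TRDKO libraries alone, among them members 1 to 5. The cap also left members 1 to 5 more room to rise. Their summed TRDKO level at stage 54 was 0.480% of wild type at stage 61, against 2.73% in the other 22. Over the 27 genes the median log2 ratio of stage 61 to stage 54 in TRDKO, with each group set to at least 3 reads, was 1.35, beside a median fitted log2 fold change of -0.0014 over all genes tested. Of the 77 other genes silent and then on in wild type, 62 rose and 2 fell in TRDKO. The cap at stage 61 selects members with small rises, so the difference between 13 of 27 and 62 of 77 follows in part from the choice.

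**Figure D3:**
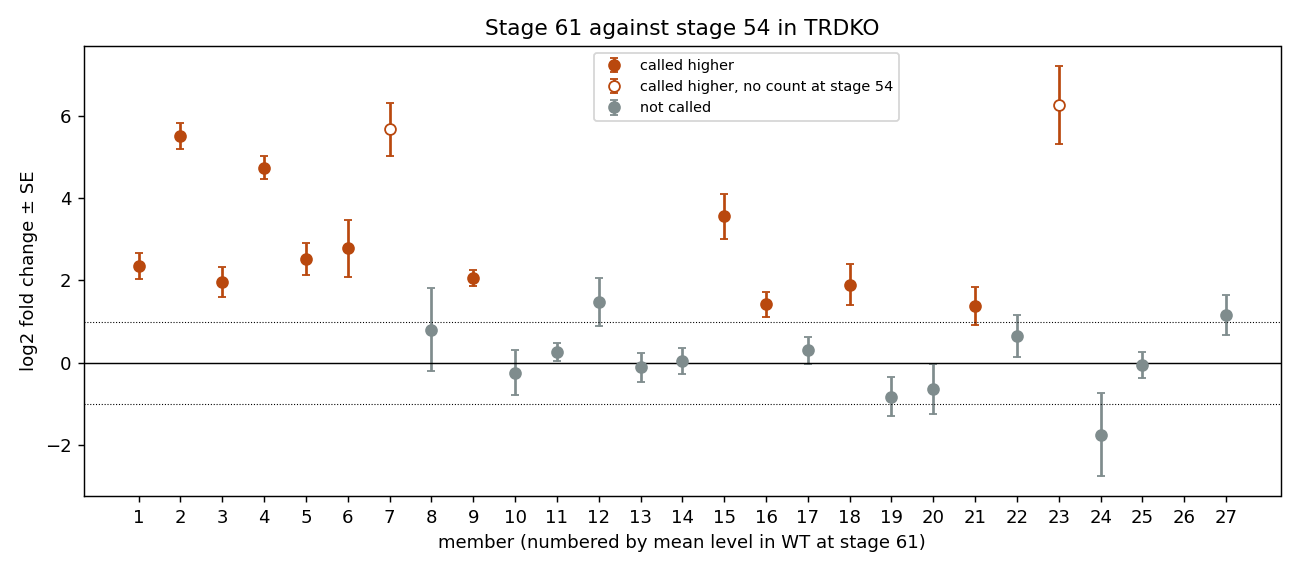
Fitted log2 fold change of stage 61 over stage 54 in TRDKO, for members numbered by level, with a standard error derived from the test statistic (edgeR, 3 libraries per stage). Filled orange points are called higher, open ones too but without a read at stage 54, and grey points are not called. The height of an open point is not an estimate of the fold, for which the reads give only a lower limit. Dotted lines mark 2-fold, and member 26 had no reads in TRDKO and has no point. Members 1 to 5 all lie above the upper dotted line.

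The size of the rise varied among the members with the highest levels. Member 2, ENSXETG00000025478, had 4, 0 and 7 reads in the TRDKO libraries at stage 54 and 214, 152 and 180 at stage 61. The fitted log2 fold change was 5.52 with a standard error of 0.32 (adjusted p = 1.17e-07 from edgeR) and 6.14 without TRDKO stage 54 replicate 3, and the libraries of the 2 stages did not overlap. Its level still ended at 3.09% of wild type.

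Member 4 had the same form, with 4, 3 and 19 reads at stage 54 and 279, 215 and 237 at stage 61. The fitted log2 fold change was 4.75 with a standard error of 0.28 (adjusted p = 1.27e-07, edgeR), and 5.78 without the library that stands apart. These 2 genes were thus close to silent in the stage 54 knockout and rose by a large factor in animals without TR, to a small part of the wild-type level.

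Member 1, ENSXETG00000022372, started higher in TRDKO at stage 54, with 29, 16 and 109 reads, and went to 324, 228 and 240. The fitted log2 fold change was 2.36 with a standard error of 0.32 (adjusted p = 9.01e-05, edgeR). The third value at stage 54 belongs to the library that stands apart, and without it the log2 fold change was 3.25. Members 3 and 5 were also highest in that library, with 77 reads against 26 and 6, and with 35 reads against 3 and 8. Their log2 fold changes were 1.96 and 2.52 (adjusted p = 6.63e-04 and 2.25e-04, edgeR), and 2.85 and 3.73 without it.

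In members 7 and 23 no TRDKO library at stage 54 had a read. Member 7 had 5, 6 and 8 reads at stage 61, at least 6.23-fold over the limit of 3 reads in the 3 stage 54 libraries. Member 23 had 14, 11 and 4, at least 9.12-fold over it. Both were called higher on these few reads, and neither passed the filter on the TRDKO libraries alone.

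Member 9 rose from 8, 10 and 17 reads to 61, 44 and 50, and had the largest share of wild type at stage 61, 11.3%. Member 15 rose from 3, 1 and 0 reads to 17, 19 and 18. Neither overlapped between the stages. Over all members, every stage 61 library lay above every stage 54 library in 14, the 13 called and 1 other, where 32.7% of all genes tested showed this.

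The remaining 14 members were not called in either direction in TRDKO. Members 10, 11, 13, 14 and 25 form a set with 5% or more of the wild-type level at both stages. Without TRDKO stage 54 replicate 3 the stage 54 shares of members 14 and 25 were 4.36% and 4.38%, under this limit. Member 11 had 25, 18 and 29 reads at stage 54 and 28, 30 and 32 at stage 61, a fitted log2 difference of 0.26 with a standard error of 0.21 (adjusted p = 0.345, edgeR). Member 14 had 11, 7 and 27 reads and then 18, 12 and 17. In the plot of stage changes these 5 genes lie near 0, with log2 fold changes from -0.25 to 0.26, and from -0.78 to 0.56 without the library that stands apart. A share of 5% or more at both stages, under the cap of the rule, leaves room for small changes only. The small changes of these genes thus follow largely from how the set was formed.

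Members 13 and 10 had the highest shares at stage 54, 10.96% and 9.21%, and both depended on the library that stands apart. Member 13 had 13, 17 and 57 reads at stage 54, the highest in replicate 3, and without that library its share was 7.38%. Member 10 had 35, 32 and 7, the lowest in replicate 3, and without it the share was 12.9%, over the limit of the rule, and the log2 fold change between the stages went from -0.25 to -0.78 (adjusted p = 0.00531, edgeR), short of the 2-fold required. The 2 genes thus moved in opposite directions in the same library.

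The others without a call had few reads in TRDKO. Members 12, 17, 22 and 27 had fitted values above 0 (log2 fold changes of 1.47, 0.29, 0.65 and 1.15), and members 19 and 20 had values below 0 (-0.84 and -0.64). Member 12, with 2, 0 and 4 reads at stage 54 and 6 in each library at stage 61, is the one whose libraries did not overlap without a call (adjusted p = 0.05002, edgeR). Members 12 and 22 were called risen without TRDKO stage 54 replicate 3, with log2 fold changes of 2.17 and 1.61. Members 8, 24 and 26 were at the limit of detection at both stages.

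**Figure D4:**
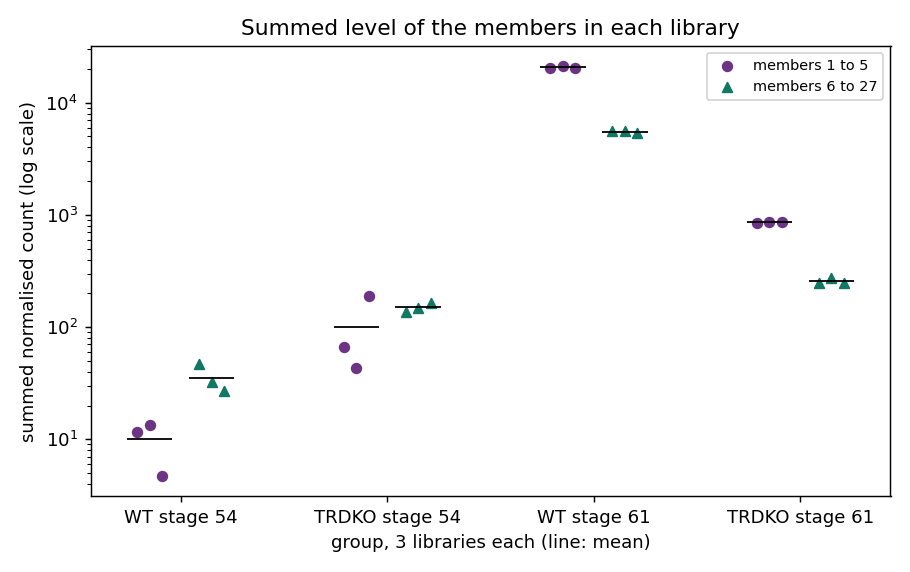
Summed normalised count (log scale) of members 1 to 5 (circles) and of members 6 to 27 (triangles) in each library, by group, with the mean of 3 libraries as a line. In TRDKO at stage 54 the circles spread from 43.3 to 188 with the highest in replicate 3, while the triangles stay between 137 and 165.

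At stage 54 the TRDKO intestine held more reads from the members than the wild type. Their summed normalised count was 58.7, 45.9 and 31.6 in the wild-type libraries and 203, 191 and 353 in the TRDKO libraries. The groups did not overlap, and replicate 3 was the highest of the TRDKO libraries. Since the rule allows at most 3 reads per member in each wild-type library, this difference follows in part from the choice of members. The mean of the TRDKO libraries, 249, was 0.952% of the wild-type level at stage 61, and 197 without replicate 3. At stage 61 the TRDKO sums were 1101, 1135 and 1107, or 4.26% of the wild-type mean of 26157 ± 384 (SD, n = 3).

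The step between the stages in TRDKO came mostly from members 1 to 5. Their summed level went from 0.480% to 4.15% of wild type at stage 61, and the lower value was 0.265% without replicate 3 of stage 54. For members 6 to 27 it went from 2.73% to 4.66%. At stage 61 members 1 to 5 gave 76.0% to 77.6% of the members' reads in the TRDKO libraries, close to their share in wild type, and at stage 54 they gave 32.7%, 22.6% and 53.3%, again with the highest value in replicate 3. Across the 26 members with reads, the log10 level in TRDKO at stage 61 and in wild type at stage 61 had a Pearson correlation of 0.74, a description over genes whose counts share libraries, gene length and the cap of the rule.

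Gene by gene, 12 members were called higher and 2 lower in TRDKO than in wild type at stage 54, where 21.7% of all genes tested were higher and 12% lower (edgeR's quasi-likelihood test, same limits). The rule holds the wild-type level near 0, so that nearly all room lay upward, and the counts are a description. When the whole procedure was run on the 6 libraries of stage 54 alone, 3 members passed its filter. These were members 1, 11 and 13, and all 3 were called higher. With the wild type at 3 reads or fewer, a member could pass only through its TRDKO reads. Those 3 calls thus follow from the filter and add no support. The 2 called lower were members 7 and 26, with 1 or 2 reads per wild-type library and none in TRDKO. Both groups are at or under 3 reads per library there, too few to rest a call on, and no fold is given. The median log2 ratio over the members, with each group set to at least 3 reads, was 1.30, beside a median fitted value of 0.12 over all genes tested. Of the 77 other genes, 62 were called higher and 0 lower.

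The 12 higher members were 1, 3, 4, 5, 9, 10, 11, 13, 14, 19, 21 and 25. In member 1 the ratio of TRDKO to wild type at stage 54 was 23.6 (95% counting interval 9.05 to 87.9), and 12.1 (4.4 to 46.2) without TRDKO replicate 3. In member 13 it was 26.7 (7.18 to 224), and 16.1 (4.08 to 139) without it. In member 11 it was 6.32 (2.91 to 16.3), with 25, 18 and 29 reads in TRDKO against 3, 3 and 1 in wild type. Member 25 had 5, 3 and 11 reads in TRDKO against none in wild type, at least 3.63-fold over the limit. In member 19 the ratio was 2.92 (0.97 to 11.8), an interval that takes in no difference. The TRDKO levels of the 12 genes at stage 54 were 0.308% (member 4) to 10.96% (member 13) of the level that wild type reached at climax. Without TRDKO replicate 3 these 2 shares were 0.164% and 7.38%. Without replicate 3 of TRDKO at stage 54, 10 members were called higher, 9 of them among the 12. Members 4, 19 and 21 were no longer called, member 20 was, and member 7 was no longer called lower.

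The range of TRDKO levels at stage 54 was wide. In 11 members the share of the wild-type stage 61 level was under 1%, in 11 it lay between 1% and 5% and in 5 it was 5% or more, with a median of 1.61% and of 1.45% without replicate 3. Members 7, 23 and 26 had no read in any TRDKO library at this stage, and 7 members had more than 3 reads in all 3. Replicate 3 was the highest library of its group in 13 members and the lowest in 5, and the cause of its difference was not tested.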

How the data were processed

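Poly-A-selected RNA of whole intestine was sequenced in 12 libraries, 3 for each genotype and stage. The authors aligned reads with STAR, version 2.6.1c, to the Ensembl frog genome with JGI gene models, and counted reads per gene with featureCounts 1.6.3. The deposited values are these raw read counts without normalization. Strand setting and treatment of reads matching several genes are not given in the sources used here, so counts of overlapping or near-identical genes are uncertain.

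Groups and replicate numbers came from the labels. Members were found with median-of-ratios size factors over the 12983 genes with reads in all libraries, 0.511 to 1.91. A count of 0 allows 3 counts, or 1.57 to 5.87 normalised counts per library. Intervals are 95% exact conditional intervals (scipy 1.17.1) of summed reads and cover counting error only. Standard errors of fitted log2 fold changes are the absolute fitted value divided by the square root of the test's F statistic. Tests used edgeR 4.0.16 in R 4.3.3 (filterByExpr, TMM scaling, a quasi-likelihood fit of all 12 libraries, 1 mean per group), with p-values adjusted over all genes tested. The procedure was tested on simulated data. The members, lists and tests were chosen with earlier results of these data known. Genes were named by rule. The 2 highest members are given by ID, and the 2 with the highest share in TRDKO at stage 54 by number, since no more IDs without names are printed. Planned lists by gene symbol were not counted, as the table of assembly UCB_Xtro_10.0 held no Ensembl IDs to match. Alternatives were RLE factors, total count alone, DESeq2 1.42.0, no filter, no fold threshold, glmTreat, the 6 libraries compared, the replicate number as a block, other limits of the rule, and each library left out. Applying the rule without 1 replicate of every group, and giving members and sums without TRDKO stage 54 replicate 3, were chosen after seeing the data. Figures used matplotlib 3.10.9.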

Additional observations from a re-analysis of the deposited data

How the results depend on the processing

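The number of members depended on the scaling and on the limits of the rule. It was 27 with TMM-scaled library sizes and 61 with total count alone, and 2 with silence at 0 counts, 61 with up to 10 counts, 40 with a level of at least 50, 16 with 200, 51 with a limit of W61/4 (W61 is the mean in wild type at stage 61) and 15 with W61/16. With single libraries, or 1 replicate of every group, left out it ranged from 23 to 34. The number was 23, all among the 27, without TRDKO stage 54 replicate 3, the library that stands apart. It was also 23 without wild-type stage 61 replicate 1. With total count alone the median share of the wild-type stage 61 level in TRDKO was 1.02% at stage 54 and 3.23% at stage 61, and with single TRDKO libraries left out it ranged from 1.45% to 1.61% and from 5.07% to 5.43%. The fit on the 6 libraries compared called 8 members risen in TRDKO and 3 higher at stage 54, since only 12 and 3 members passed its filter, and glmTreat called 9 and 8. With single libraries left out the counts ranged from 12 to 15 and from 10 to 13. In every fit 0 members fell, but low reads at stage 54 left most members little room to fall. Total count alone called 17 members higher at stage 54, as it moved the median log2 fold change of all genes there from 0.12 to 0.69. For none of the alternative fits is the share of all genes called given. Their counts show how the calls moved, and not an excess over all genes. The log2 fold change between the stages in TRDKO changed sign in member 13 and in member 10 with single libraries left out, from -0.45 to 0.56 and from -0.78 to 0.18. The cause was not tested. The replicate numbers did not pair the libraries (same-number correlations of -0.037 to 0.060 over 18 pairs), and the replicate block gave 13 risen and 11 higher members. Counts under about 3 reads limit every value in wild type at stage 54.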
